A study of Mus musculus with 4 samples.

Results

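RIF1 occupancy was examined at 48 genes of DNA replication licensing and origin firing in activated primary mouse B cells. The genes were taken from a list of names, all 48 of which were found among the 22367 protein-coding genes of the mm9 annotation (GENCODE M1) on chromosomes with binding intervals. Chromatin immunoprecipitation sequencing (ChIP-seq) with an antibody against the HA tag was performed on splenic B cells, isolated with anti-CD43 beads, activated with LPS (5 µg/ml) and IL-4 (5 ng/ml) and harvested after 72 h. Rif1FH cells (2 samples) came from Rif1FH/FH mice, in which endogenous RIF1 carries the Flag and HA epitopes at its N terminus, and Rif1WT cells (2 samples) came from C57BL/6 (Rif1WT/WT) mice with untagged RIF1 and served as the negative control. All 4 samples received the same activation, and the age of the mice was not given in the sources used here. The antibody field of the labels names the anti-CD43 beads, whereas the extraction protocol gives the anti-HA antibody.

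Replication origins are licensed when the origin recognition complex (ORC), together with CDC6 and CDT1, loads the MCM2-7 helicase onto DNA, while geminin holds CDT1 in check outside this period. In S phase, the DBF4-dependent kinase CDC7 and cyclin-dependent kinases recruit CDC45 and GINS to the loaded helicase, and primase, polymerases, the PCNA clamp and its loader then build the fork. RIF1 is known to recruit protein phosphatase 1, which opposes the phosphorylation of MCM proteins by CDC7. Many of the genes described here are textbook targets of E2F factors and are induced as resting lymphocytes enter the cell cycle. RIF1 therefore bears on the process that these genes encode. In B cells the study found that RIF1 favours early replication, with only a minor role in origin activity. It considered dephosphorylation of MCM4 an unlikely route for that function. The question addressed here is where the intervals of RIF1 lie relative to these genes.

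The analysed list gave the positions of 16332 intervals retained where both replicates of Rif1FH had a call, with no score or height. Read depth, the level in Rif1WT cells and the spread between replicates are therefore unknown, and no test over samples could be made. Intervals fell into 16043 narrow intervals (under 50 kb, called peaks here) and 289 wide intervals (50 kb or more, taken to be RIF1-associated domains, RADs). The study counted as peaks only those outside RADs, so a gene inside a wide interval could not also have a peak there. Of 8 B cell marker genes, 3 had a peak at the 5′ end (37.5%, all coding genes 31.9%) and 4 lay in a wide interval, against 0 and 1 of 6 T cell marker genes. None of 4 myeloid and 2 NK cell marker genes had a peak at the 5′ end, and 1 of each lay in a wide interval. A peak at a gene is not a measure of its expression, so these counts do not check the labelled cell type.

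Of the 48 replication genes, 29 (60.4%) had a peak within 1 kb of the annotated 5′ end, compared with 31.9% of all coding genes. A further 12 (25.0%) overlapped a wide interval, close to the 22.6% of coding genes that did so. Neither a peak at the 5′ end nor a wide interval was listed at 7 (14.6%), against 45.8% of coding genes. The replication genes thus differed from the background in peaks and in genes with neither, and little in wide intervals. Genes with neither can still hold a peak farther within the gene, as Mcm9 did. Outside wide intervals, 29 of 36 replication genes (80.6%) had a peak at the 5′ end, against 40.8% of coding genes. A peak overlapped the gene itself in 30 cases (62.5%, background 35.9%). These are counts over a fixed list of genes, with no replicate error, and no test was made of the difference. The background holds all annotated coding genes, whether or not they are expressed in these cells. It was not matched to the replication genes for expression, whose part was not tested.

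**Figure D1:**
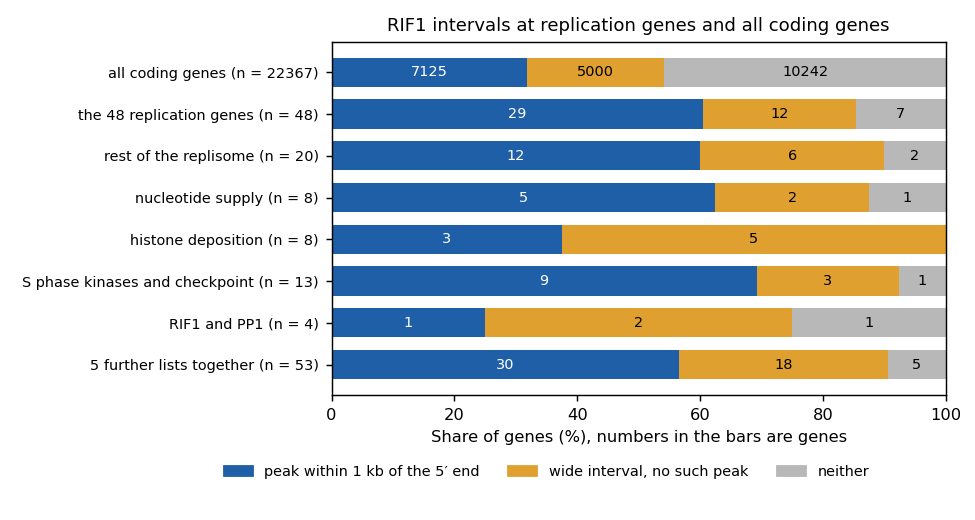
The share of genes (%) with a RIF1 peak within 1 kb of the 5′ end (blue), with a wide interval but no such peak (orange) or with neither (grey), for all coding genes, the 48 replication genes and 5 further lists of S phase genes, with the number of genes in each bar. Peaks took 29 of 48 replication genes and 7125 of 22367 coding genes, and the orange share was similar in both.

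The promoters of genes on either side of this division are shown first, since both occur within the same complex. For the role groups of licensing and kinase activation, the member with the widest peak at its 5′ end (Orc2, Cdt1, Mcm4 and Cdc7) is set beside every member with no interval (Orc6, Mcm6 and Dbf4). Each sequence was read from mm9 on the strand of the gene, 5′ to 3′, from 250 bases before to 30 bases from the 5′ end, and capitals mark matches on either strand to the motifs described further on (E2F, CCAAT box, CHR element, GC box and ETS core).
Orc2 (chr1:58561924-58562203, minus strand): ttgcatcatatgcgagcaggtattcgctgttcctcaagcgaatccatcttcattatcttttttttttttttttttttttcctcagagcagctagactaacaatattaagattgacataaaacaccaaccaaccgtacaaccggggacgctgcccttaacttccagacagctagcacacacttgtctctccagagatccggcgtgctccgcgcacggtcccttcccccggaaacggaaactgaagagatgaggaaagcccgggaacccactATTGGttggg
Orc6 (chr8:87823281-87823560, plus strand): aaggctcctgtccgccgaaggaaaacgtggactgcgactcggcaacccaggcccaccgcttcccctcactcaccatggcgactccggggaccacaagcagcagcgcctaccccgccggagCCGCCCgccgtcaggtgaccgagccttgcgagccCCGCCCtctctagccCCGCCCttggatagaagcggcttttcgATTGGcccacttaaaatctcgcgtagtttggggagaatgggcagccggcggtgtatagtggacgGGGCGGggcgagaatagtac
Cdt1 (chr8:125091665-125091944, plus strand): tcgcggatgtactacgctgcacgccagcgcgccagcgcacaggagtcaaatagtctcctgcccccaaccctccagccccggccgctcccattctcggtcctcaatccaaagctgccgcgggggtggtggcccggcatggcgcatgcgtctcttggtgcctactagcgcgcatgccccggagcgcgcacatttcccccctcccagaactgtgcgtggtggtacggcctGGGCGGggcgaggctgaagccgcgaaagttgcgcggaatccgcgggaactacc
Mcm4 (chr16:15637464-15637743, minus strand): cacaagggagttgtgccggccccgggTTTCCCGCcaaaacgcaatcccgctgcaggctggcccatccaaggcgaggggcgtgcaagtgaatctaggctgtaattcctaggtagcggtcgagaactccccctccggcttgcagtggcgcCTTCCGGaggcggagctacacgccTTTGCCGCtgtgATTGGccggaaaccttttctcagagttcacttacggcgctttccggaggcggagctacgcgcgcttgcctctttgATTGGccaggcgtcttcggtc
Mcm6 (chr1:130256204-130256483, minus strand): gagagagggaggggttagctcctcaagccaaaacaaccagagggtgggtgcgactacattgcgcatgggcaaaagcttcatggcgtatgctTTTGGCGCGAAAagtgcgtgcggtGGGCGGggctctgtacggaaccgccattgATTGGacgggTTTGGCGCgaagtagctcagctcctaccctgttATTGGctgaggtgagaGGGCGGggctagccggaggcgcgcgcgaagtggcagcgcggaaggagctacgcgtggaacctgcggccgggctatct
Cdc7 (chr5:107393091-107393370, plus strand): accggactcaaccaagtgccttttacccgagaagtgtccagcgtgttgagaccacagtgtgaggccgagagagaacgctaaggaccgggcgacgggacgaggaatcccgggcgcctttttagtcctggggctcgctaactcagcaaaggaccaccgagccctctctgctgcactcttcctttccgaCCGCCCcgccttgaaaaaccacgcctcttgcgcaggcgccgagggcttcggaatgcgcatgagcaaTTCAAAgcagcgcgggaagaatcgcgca
Dbf4 (chr5:8422687-8422966, minus strand): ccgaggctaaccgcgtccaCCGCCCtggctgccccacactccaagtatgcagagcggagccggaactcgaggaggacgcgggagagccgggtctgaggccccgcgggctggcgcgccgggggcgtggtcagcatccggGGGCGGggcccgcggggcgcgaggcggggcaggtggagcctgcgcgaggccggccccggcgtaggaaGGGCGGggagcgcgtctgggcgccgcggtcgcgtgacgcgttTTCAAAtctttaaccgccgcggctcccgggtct
Mcm6, with no peak, carried 3 E2F matches of which a pair overlap, more than the 2 of Mcm4, which had a 2007 bp peak. Orc6 and Dbf4, also without a peak, each held GC boxes, 4 and 3 in number, whereas Orc2 held none. Orc6 and Dbf4 held no E2F match, and neither did Orc2, Cdt1 and Cdc7, which had a peak. Mcm4 alone held an ETS core (1 match), which was absent from the 3 windows without a peak and from Orc2, Cdt1 and Cdc7.

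Genes of the origin recognition complex, the ATPase assembly that marks origins, were peak-bound in 5 of 6 cases (83.3%, all coding genes 31.9%). Peaks lay over the 5′ ends of Orc1 (1327 bp), Orc2 (ENSMUSG00000026037.8, chr1:58560254-58562602, 2349 bp), Orc3 (1378 bp) and Orc5 (1987 bp). The peak at Orc4 was narrower, at 678 bp, and began 893 bp downstream of the 5′ end of the gene, with its midpoint in an intron and 186 bp from the 5′ end of a shorter transcript. Orc6, the subunit least related to the others, was the exception, with its nearest peak 182 kb away. Peaks at 5 of 6 genes were also found for the clamp and its loader, described further on.

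The licensing factors divided differently. Cdt1 (ENSMUSG00000006585.2), which brings MCM2-7 to ORC, had the second widest peak of all members (chr8:125088166-125092553, 4388 bp), with edges at -3749 and 638 bp from the 5′ end (negative values are upstream). Cdc6, the ATPase that loads MCM2-7 with ORC, and Gmnn, which encodes the CDT1 inhibitor geminin, had no peak and lay in wide intervals. Of the 3 genes, Cdt1 alone thus had a peak (33.3%, near the 31.9% of all coding genes). Cdc6 and Gmnn lay where no peak could be listed.

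Within the MCM2-7 helicase, whose 6 subunits form a ring in equal amounts, all 3 states were found. Peaks covered the 5′ ends of Mcm3 (1556 bp), Mcm4 (ENSMUSG00000022673.3, chr16:15636868-15638874, 2007 bp) and Mcm5 (1549 bp). Mcm2 and Mcm7 lay in wide intervals, and Mcm6 had neither, with the nearest peak 57.0 kb upstream at the 5′ end of Dars. Peaks were thus listed at 3 of the 6 subunits (50.0%, all coding genes 31.9%). Mcm2 and Mcm7 lay where no peak could be listed, so their lack of a peak cannot be compared with the other subunits. Among subunits outside wide intervals, Mcm6 alone had no peak. Of the other MCM proteins, Mcm8, which acts in homologous recombination, had a peak of 1048 bp (chr2:132641345-132642392) with its midpoint at -9 bp from the 5′ end. Its partner Mcm9 and Mcm10, a firing factor unrelated in sequence to the helicase ring, had no interval at their 5′ ends. The share with a peak was thus 1 of 3 (33.3%), near the 31.9% of all coding genes.

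CDC45 and GINS turn the loaded MCM ring into an active helicase. Cdc45 was 1 of 2 members with a pair of peaks at the 5′ end, of 646 and 546 bp, which lay on either side of it, the nearer 198 bp downstream. A peak of 2842 bp (chr8:98155808-98158649) covered the 5′ end of Gins3 and one of 1072 bp that of Gins4, whereas Gins1 and Gins2 lay in wide intervals. Among the firing factors, Cdc7 (ENSMUSG00000029283.10, chr5:107392447-107394699, 2253 bp) and Topbp1 (1327 bp), which bridges CDK-phosphorylated proteins to CDC45 and GINS, had peaks. Recql4, a helicase needed for firing, lay in a wide interval. Dbf4, the activating subunit of CDC7, had no peak within 1 kb, but the nearest was only 1182 bp upstream. The kinase and its activator were thus separated by the window chosen, since Orc4 at 893 bp fell just inside it and Dbf4 just outside.

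Of 7 genes for primase and polymerases, 5 had a peak at the 5′ end (71.4%, all coding genes 31.9%). Among them were both primase subunits, Prim1 (1253 bp) and Prim2 (1667 bp), and the catalytic subunit of the leading strand polymerase, Pole (chr5:110714555-110716367, 1813 bp). Pold2 (1726 bp) and Pole2 (588 bp) also had a peak, whereas Pola2 and the catalytic subunit of polymerase delta, Pold1, lay in wide intervals. Pcna, the sliding clamp, had a peak of 1151 bp. Of the 5 clamp loader subunits, 4 had a peak, the widest of all members at Rfc3 (chr5:152452284-152456906, 4623 bp), with Rfc1 (1154 bp), Rfc4 (1473 bp) and Rfc5 (1410 bp). Only Rfc2 among the clamp and its loader had no interval, so 5 of 6 genes had a peak (83.3%, all coding genes 31.9%).

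The remaining groups were small. For single-strand binding and for fork protection, 1 of 3 genes each had a peak (33.3%, near the 31.9% of all coding genes). In replication protein A, which coats single-stranded DNA, the smallest subunit Rpa3 had a peak (chr6:8208634-8209990, 1357 bp), whereas Rpa1 and Rpa2 lay in wide intervals. The fork protection genes showed each state, with a peak at Clspn (chr4:126233788-126234996, 1209 bp), the mediator of CHK1 activation, a wide interval at Timeless and neither at Tipin, although TIMELESS and TIPIN form a dimer. For the maturation of Okazaki fragments, both the flap nuclease gene Fen1 (1324 bp) and the ligase gene Lig1 had peaks. Lig1 had a pair at the 5′ end, of 513 bp over it and of 1775 bp (chr7:13863085-13864859) starting 453 bp downstream.

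**Figure D2:**
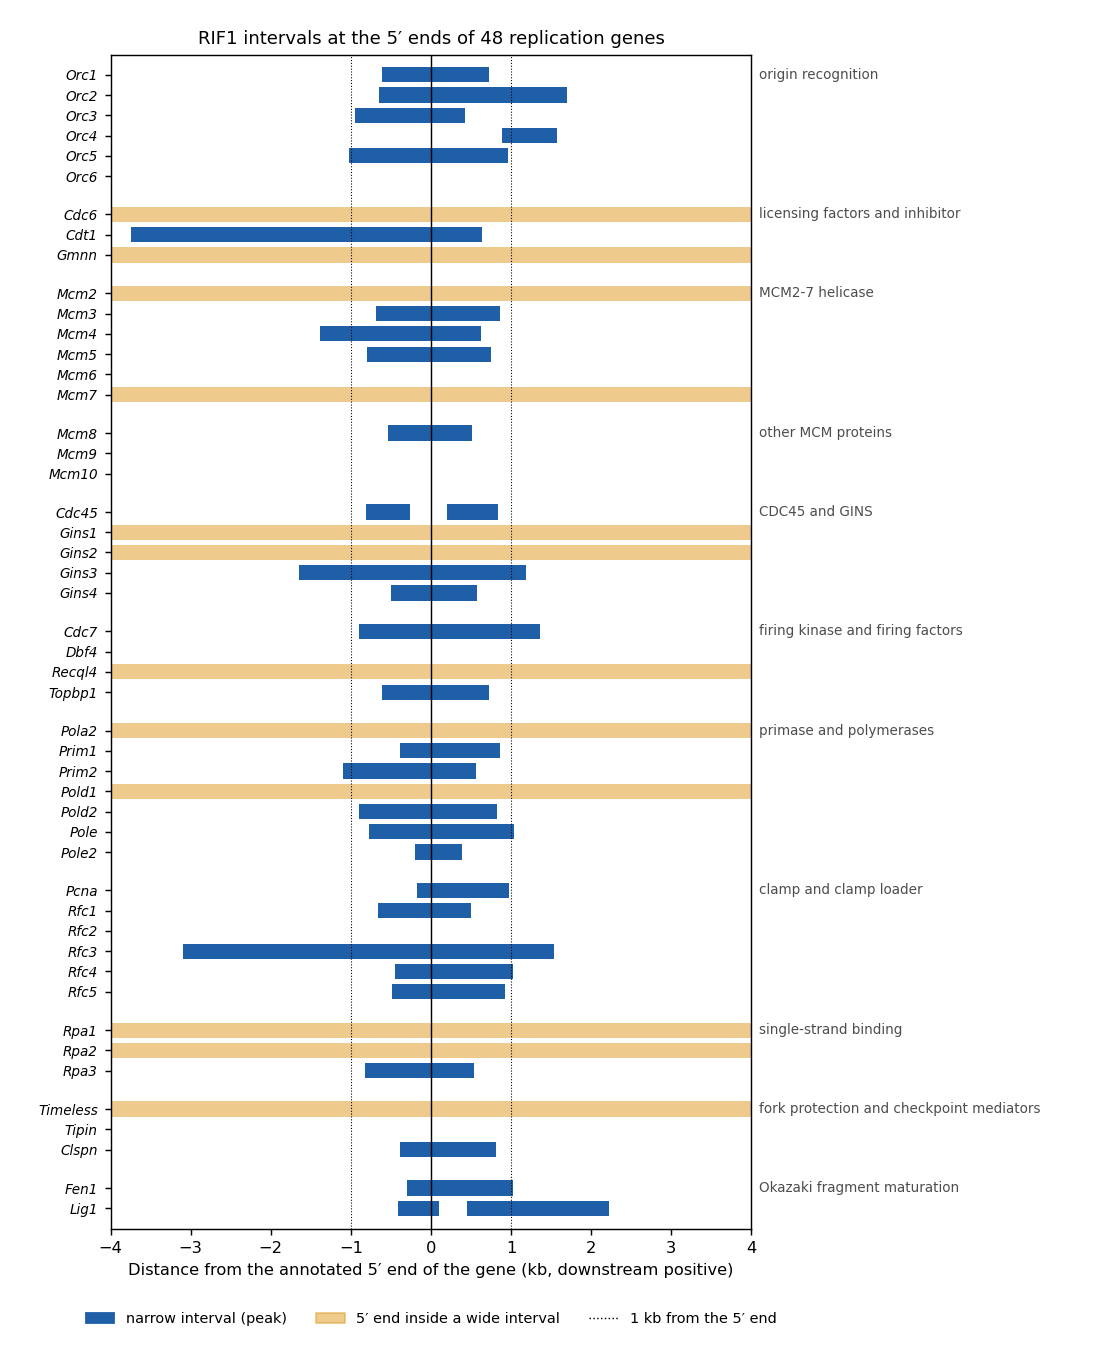
RIF1 intervals at the annotated 5′ end of each of the 48 genes, grouped by role. The x axis runs from 4 kb upstream to 4 kb downstream (downstream positive). Blue bars are peaks that reach within 1 kb of the 5′ end, and other peaks are not drawn. Orange bands mark a 5′ end inside a wide interval, and dotted lines mark 1 kb. Most peaks lay across the 5′ end. Orc6, Mcm6, Mcm9, Mcm10, Dbf4, Rfc2 and Tipin had blank lanes, the peak 1182 bp upstream of Dbf4 being outside the window.

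Peaks at these genes were centred near the 5′ end. In 27 of 29 genes a peak covered the 5′ end itself, the exceptions being Orc4 and Cdc45. Taking the peak nearest to each 5′ end, the midpoint lay downstream in 16 genes and upstream in 13, with a median offset of 56 bp downstream (95% order-statistic interval over genes -81 to 220 bp, range -1556 to 1232 bp). The median over all coding genes with a peak was 42 bp, inside that interval. The midpoint fell in an exon of the gene in 8 cases, in an intron in 8 and outside the gene in 13. The median width was 1378 bp (1209 to 1726 bp), and that over peaks at the 5′ ends of all coding genes, 1585.5 bp, also lay inside the interval. In position and width, the peaks at replication genes thus had medians near those of peaks at coding genes in general.

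Peaks elsewhere in the genes were few. Prim2 held a second peak of 466 bp in an intron, 198 kb downstream of its 5′ end, and Rfc3 a second of 1652 bp across its 3′ end. Mcm9 had a peak in its annotated span only, in an intron 33.8 kb from its 5′ end (chr10:53314967-53316449, 1483 bp), and this peak lay in the 5′ window of Asf1a, a histone chaperone gene inside Mcm9. It cannot be assigned to Mcm9 rather than Asf1a.

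The same ambiguity applied at shared promoters. The peak nearest to the 5′ end also overlapped the 5′ window of another coding gene at 11 of the 29 replication genes with a peak, as at Mcm4, whose neighbour Prkdc encodes the catalytic subunit of DNA-dependent protein kinase, at Orc1 with Prpf38a and at Cdc45 with Ufd1l. The others were Orc3, Orc4, Mcm8, Topbp1, Prim2, Pole, Rpa3 and Fen1. At Lig1, the peak of 1775 bp was shared in the same way. In all, 17 members had a coding gene on the opposite strand with its 5′ end within 1 kb, and 11 of them (64.7%) had a peak, against 55.2% of coding genes in this arrangement. Among members without such a neighbour the count was 18 of 31 (58.1%), against 29.0% of coding genes. The difference from the background was thus larger where no coding 5′ end on the opposite strand lay within 1 kb. Between the 2 arrangements the share of coding genes fell more (55.2 to 29.0%) than that of members (64.7 to 58.1%). Promoters on the same strand and of noncoding genes were not considered. The counts include members in wide intervals, 4 with and 8 without such a neighbour, where no peak could be listed.

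The GC content of the 2 kb around the 5′ end of members ran from 43.7 to 58.4% with quartiles of 49.0 and 52.1%, a tighter range than that of coding genes (quartiles 45.7 and 55.9%). Medians were 50.7% and 51.1%. When all coding genes were divided into tertiles of GC content, 6 of 9 members in the lowest tertile (under 47.8%) had a peak (66.7%, background 12.1%), and 21 of 33 in the middle tertile (63.6%, background 39.2%). In the highest tertile (54.3% or more) it was 2 of 6 (33.3%, background 44.2%). There the share lay below the background, on few genes, of which 2 lay in wide intervals where no peak could be listed. All tertiles include genes in wide intervals. The peaks themselves had a median GC content of 54.4%, and peaks at all coding 5′ ends 54.9%.

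**Figure D3:**
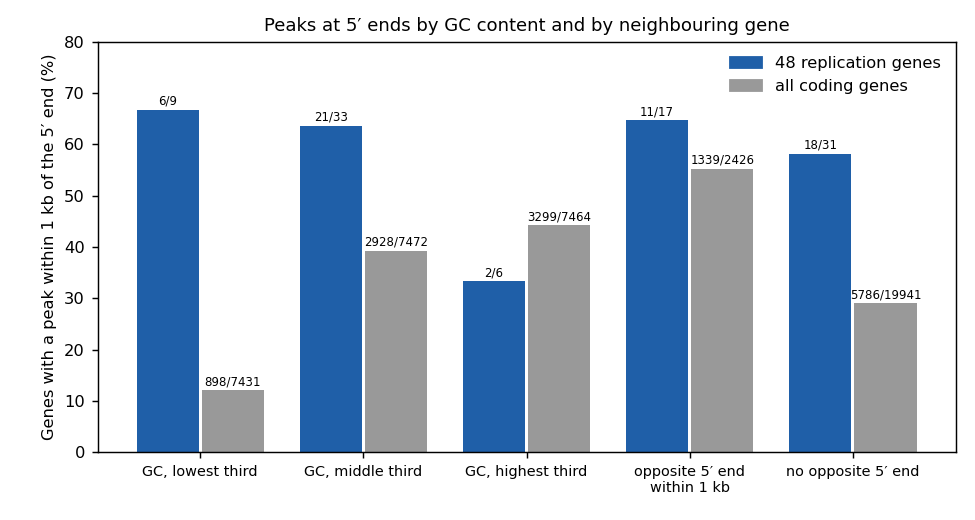
The share of genes (%) with a RIF1 peak within 1 kb of the 5′ end by tertile of GC content of the 2 kb around it and by the presence of a coding gene 5′ end on the opposite strand within 1 kb, for the 48 replication genes (blue) and all coding genes (grey), with gene counts over the bars. Genes in wide intervals are included in both. Blue exceeded grey except in the highest GC tertile, which held 6 members, 2 of them in wide intervals.

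The 12 genes without a peak but within RADs lay in 12 different wide intervals. Of these genes, 11 lay wholly inside, and Rpa1 in part, with its 5′ end 11.8 kb within the edge. The intervals had a median length of 960 kb, the same as the median over all 5051 coding genes in wide intervals (960 kb), and ran from 350 kb at Rpa1 (chr11:75150001-75500000) to 3600 kb at Rpa2 (chr4:132280001-135880000). They held 6 to 108 coding genes each, of which 1 was a member. An interval of this size cannot be assigned to the named gene.

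The longest after that at Rpa2 was the interval over Gmnn (chr13:23292001-25160000, 1868 kb), which also held 31 genes of the Hist1 cluster of replication-dependent histones among its 57 coding genes. Pold1 lay in the interval with most genes (chr7:51426001-53226000, 1800 kb, 108 coding genes), and Mcm2 in that with fewest (chr6:88506001-89020000, 514 kb, 6 coding genes). The others were those over Gins1 (chr2:149920001-151340000, 1420 kb), Pola2 (chr19:5360001-6606000, 1246 kb), Cdc6 (chr11:98140001-99180000, 1040 kb), Mcm7 (chr5:137920001-138800000, 880 kb), Gins2 (chr8:122562001-123440000, 878 kb), Timeless (chr10:127600001-128268000, 668 kb) and Recql4 (chr15:76338001-76878000, 540 kb). Most 5′ ends lay well inside, up to 609 kb from the nearest edge at Gins1, whereas Rpa2 (44.2 kb), Timeless (69.1 kb) and Rpa1 lay close to an edge. Timeless and Prim1 are neighbours, 217 kb apart on chromosome 10, and fell on either side of such an edge, Prim1 with a peak 148 kb outside.

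**Figure D4:**
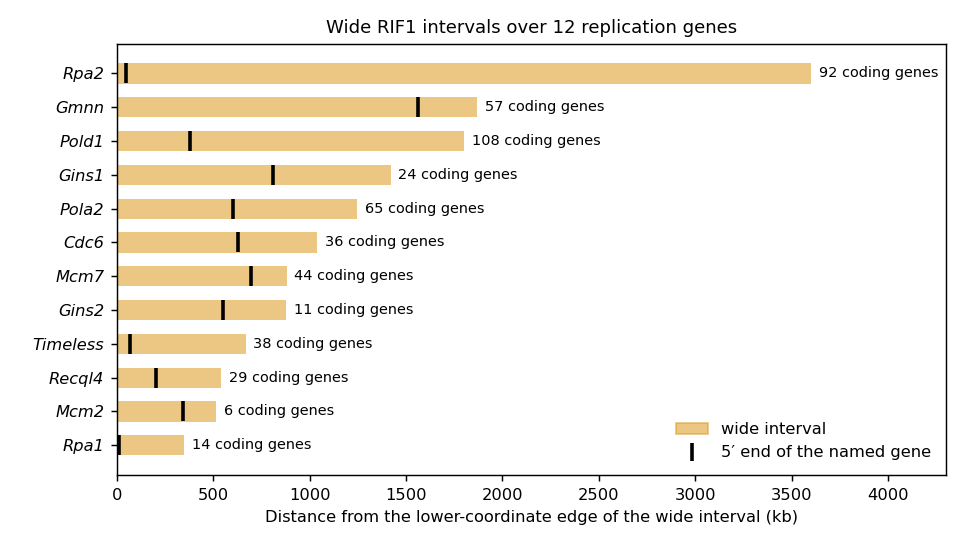
The 12 wide RIF1 intervals that overlap a replication gene, drawn to scale from the edge with the lower coordinate (x axis in kb), with the 5′ end of the named gene as a black mark and the number of coding genes in each interval. Lengths ran from 350 to 3600 kb, and the 5′ ends of Rpa1, Rpa2 and Timeless lay nearest to an edge.

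The 7 genes with neither a peak at the 5′ end nor a wide interval differed in how far their 5′ ends lay from a peak. At Mcm9 that peak lay within the gene. Dbf4 (ENSMUSG00000002297.9, chr5:8396973-8422716) was 1.18 kb from the nearest peak and Rfc2 (chr5:135058560-135074198) 10.1 kb, both with the peak upstream. Mcm10 (chr2:4910760-4933837) was 23.8 kb, Mcm9 (chr10:53256135-53350245) 33.8 kb, Mcm6 (ENSMUSG00000026355.4, chr1:130228168-130256233) 57.0 kb and Tipin (chr9:64129414-64152599) 58.2 kb from a peak. Orc6 (ENSMUSG00000031697.5, chr8:87823531-87832177) stood farthest, at 182 kb, and was the only member outside wide intervals with 0 peaks within 100 kb of its 5′ end. It was also 104 kb from a wide interval. For comparison, the 36 members outside wide intervals had a median of 3 peaks within 100 kb (range 0 to 9), and coding genes outside wide intervals a median of 2. Without read depth, an absent peak means only that none was listed in both replicates.

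Over all 48 genes the distance from the 5′ end to the nearest peak had a median of 0 bp, as 27 lay inside a peak. The median was 41070.5 bp for 22350 coding genes on chromosomes with peaks, which include genes in wide intervals. Outside wide intervals the medians were 0 bp for 36 members and 11886 bp for 17301 coding genes. From 1 to 10 kb the share within the limit rose from 60.4 to 62.5% of members, by Dbf4 alone, and from 31.9 to 38.0% of coding genes. At 100 kb they were 75.0% and 59.6%. The largest distance, 4531 kb, belonged to Gmnn and passed the edge of its wide interval.

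**Figure D5:**
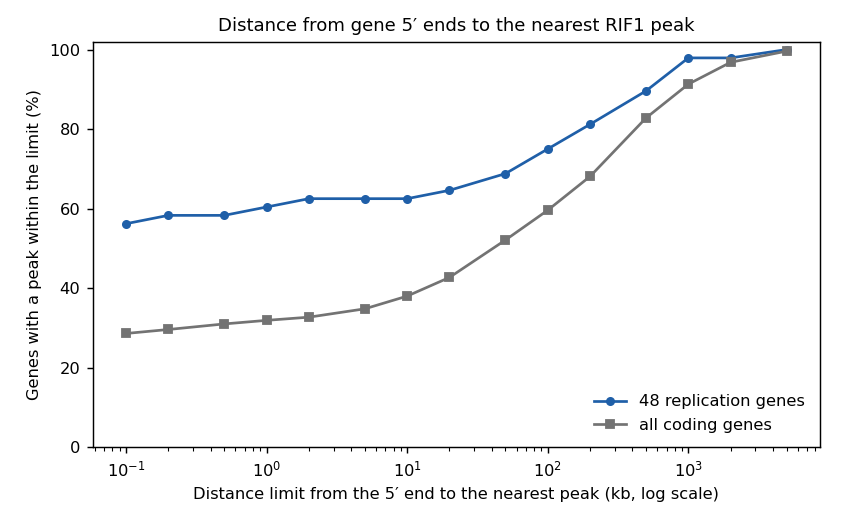
The share of genes (%) whose 5′ end lay within a given distance (x axis in kb, log scale) of the nearest RIF1 peak, for the 48 replication genes (blue circles) and all coding genes (grey squares). From 0.1 to 10 kb the blue line rose from 56.2 to 62.5% and the grey line from 28.6 to 38.0%, and both neared 100% at 5000 kb.

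Promoter sequence was then examined in the window of 250 bases before to 30 bases from the 5′ end, in mm9. E2F motifs (TTTCCCGC, TTTCGCGC, TTTGCCGC or TTTGGCGC, either strand) were present at 11 of 48 members (22.9%) and at 2.51% of coding genes. They were found at 8 of 29 members with a peak, 1 of 12 in wide intervals (Gmnn) and 2 of 7 with neither (Mcm6 and Tipin). The 8 with a peak were Orc1, Orc3, Mcm3, Mcm4, Mcm5, Gins3, Topbp1 and Pole2. Among the 561 coding genes with this motif, 50.1% had a peak at the 5′ end, and among all coding genes with a peak, 3.94% had the motif.

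The ETS core (CCGGAAG) was present at 16 members (33.3%, all coding genes 10.2%). Of these 16, 13 had a peak (81.2%), against 54.9% of the 2292 coding genes with the motif. Coding genes in general also held the ETS core more often with a peak at the 5′ end (17.7%) than without (6.78%). Rpa3 carried 3 copies and Mcm8, Gins4, Topbp1 and Rfc3 2 each. The GC box (GGGCGG) was present at 34 members (70.8%, coding genes 42.2%, coding genes with a peak 63.5%) and the CCAAT box (CCAAT) at 30 (62.5%, coding genes 36.8%), in like shares of members with a peak, in wide intervals and with neither. The CHR element (TTTGAA) was no more common in members (6, 12.5%) than in coding genes (15.7%). Of the 5 motifs, the ETS core thus showed the widest spread between members with a peak (44.8%), in wide intervals (16.7%) and with neither (14.3%), on counts of 13, 2 and 1. A match of letters is not a measured binding site.

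To place the 48 genes within the S phase programme, 5 further lists were described in the same way. Of 20 other replisome and loading factor genes, 12 (60.0%) had a peak at the 5′ end, 6 lay in wide intervals, and Donson and Chtf8 had neither. Of 8 nucleotide supply genes, 5 (62.5%) had a peak, among them both ribonucleotide reductase genes Rrm1 (1208 bp) and Rrm2 (3288 bp), and Dctd had neither. Of 13 kinase and checkpoint genes, 9 (69.2%) had a peak, including Ccne1, Ccna2, Chek1 and Atr, and Cdc25a had neither. Of 8 histone deposition genes, 5 lay in wide intervals (62.5%, all coding genes 22.4%) and 3 had a peak (37.5%, near the 31.9% of all coding genes). Rif1 itself had a peak of 1028 bp beginning 111 bp from its 5′ end, whereas the phosphatase genes Ppp1ca and Ppp1cc lay in wide intervals and Ppp1cb had neither. Over the 5 lists together, 30 of 53 genes (56.6%) had a peak, close to the 60.4% of the 48 replication genes.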

How the data were processed

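RIF1 ChIP-seq was performed on 2 Rif1FH and 2 Rif1WT samples. Per the labels and the study's methods, the authors trimmed reads with Trim Galore 0.6.4, aligned them to mm9 with Bowtie 1.0.0, keeping unique alignments, called narrow and broad peaks per replicate with MACS2 2.2.6 and domains with EDD, merged them with bedtools 2.27.1 and retained calls present in the 2 replicates. Reads from repeated sequence are lost when only unique alignments are kept, and the calling threshold and the part of the control samples in calling were not given in the sources used here. The deposited list holds 3 columns of positions, with no score, signal or value per sample, so depth and its precision are unknown.

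Intervals were split at 50 kb. Of the reference chromosomes (NCBIM37), 21 of 21 named in the list were present, and 1 interval ended 9880 bp past the end of chromosome 4. A gene was counted if at least 1 bp of a narrow interval lay within 1 kb of the 5′ end of its annotation, whichever transcript gives it. Wide intervals were counted over the gene. Median intervals of 95% are exact binomial order-statistic intervals over genes and cover the spread between genes only. No test was made, because the list is a single pooled set. Every member was named. Positions are given for the widest 5′ peak of each role group and for members without a 5′ peak, and sequences for 7 promoters of the licensing and kinase groups. Of the pathway lists, those with neither interval are named by rule, and other genes were chosen after their values were seen. The members and lists were chosen with earlier results of these data known. Overlap and distance functions were checked on simulated intervals. Alternatives varied the window (0.1, 0.5, 2 and 5 kb), the 5′ end, the overlap, the width of intervals and the kind of interval. Computation used Python 3.11.15, scipy 1.17.1 and matplotlib 3.10.9.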

Additional observations from a re-analysis of the deposited data

How the results depend on the processing

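The 7 results were recomputed under 28 other settings, of which 23 stayed within 1.5 times the main count or within the order-statistic interval of the main median. The number of members with a peak at the 5′ end was 27 for a 0.1 kb window, which lost Orc4 and Cdc45, and 30 at 2 or 5 kb, which gained Dbf4. Keeping only peaks at or above the median width lowered it to 16, and the share of coding genes to 20.3%, by construction. The share of coding genes rose to 53.9% when wide intervals were counted with peaks, and 41 members then had either. Across settings the share of members was 1.58 to 1.97 times that of coding genes. Requiring the midpoint of a peak inside the gene left 19 members rather than 30, since many midpoints lie just upstream. The median width of the wider peaks was 1813 bp. No paired analysis was possible because a single pooled list of positions was analysed, and for the same reason leaving out a replicate was not run. Depth is unknown, so a gene without an interval is only one without a listed interval, and the background includes genes in repeated sequence, whose part was not tested.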
